A study of Mus musculus with 3 samples.

Results

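The genes described here make up and acidify the lysosome, and they were followed across 3 populations of colonic myeloid cells. They were taken by symbol, not by level. They comprise 8 subunit genes of the V1 sector of the vacuolar proton pump (V-ATPase), 8 genes of its V0 sector and accessory proteins, 7 lysosomal membrane proteins, 9 hydrolases, 3 lumenal cofactors or lipid carriers and the transcription factor gene Tfeb. Cathepsins were left out. All 36 were found among the 24346 symbols of the tables, and all 36 were among the 17329 genes that reached 1 FPKM or more in any library. The populations, all colonic and all from BALB/c mice described as healthy, were dendritic cells without CD64 (CD64- DC), macrophages with CD64 (CD64+ MΦ) and cells with Gr-1 and CD11b (Gr-1+ CD11b+), which the labels call neutrophil and monocyte. CD64 is an Fc receptor used to tell macrophages from DC, and the antibody to Gr-1 binds both neutrophils and some monocytes. Each population had 1 library, so no difference has a replicate check and no test was possible. The age of the mice and whether several were pooled are not given in the sources used here.

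Lysosomes are the acidic compartments in which cells degrade material taken up by endocytosis, phagocytosis and autophagy. The V-ATPase sets their pH: the cytosolic V1 sector hydrolyses ATP, and the membrane-bound V0 sector carries protons into the lumen. Hydrolases work at that low pH, heavily glycosylated membrane proteins line the organelle, and TFEB, a basic helix-loop-helix factor of the MiT family, activates many lysosomal genes through sites that hold the letters CACGTG. In phagocytes the same compartment digests microbes and dead cells, and in antigen-presenting cells it also supplies peptides for MHC class II.

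Levels are given as FPKM, the fragments per kilobase of transcript after scaling to library size. Differences are taken between values of log2(FPKM + 1), a scale that makes those of low genes too small. The size rule used throughout called a gene when the difference reached 2 and the higher library held at least 10 FPKM. Depth, inferred from the steps of low values, was 3.61 and 2.70 times that of the Gr-1+ CD11b+ library in DC and macrophages. Over 1445 olfactory and vomeronasal receptor genes, which these cells should not use, the 95th percentile was 0.610 FPKM in DC, with macrophages at 3.23 and Gr-1+ CD11b+ cells at 9.67. Values below it are not read as expression. In DC and macrophages 35 members lay above that level (Atp6v0d2 did not), and in Gr-1+ CD11b+ cells 31 did. The 5 below it there were Atp6v0d2, Npc1, Mcoln1, Gaa and Glb1.

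Marker lists separated the populations, but each library also held transcripts of genes listed as markers of the others. The summed FPKM of 11 macrophage markers was 3762 in DC, 34300 in macrophages and 13511 in the Gr-1+ CD11b+ cells, where Cd14 alone gave 10998. The sum of 10 dendritic cell markers was 1503, 421 and 90.8 in the same order, and that of 10 neutrophil markers was 1814, 4822 and 181089. The 9 B and plasma cell markers summed to 23135 FPKM in DC against 1182 and 439, with all 9 above the receptor gene level in DC. The 7 monocyte markers summed to 1545, 3541 and 1164 FPKM. As deposited this sum was lowest for Gr-1+ CD11b+, but by gene 4 markers lay above their DC value there and 3 below. The median log2 difference (Gr-1+ CD11b+ minus DC) was 0.01. With the libraries scaled to equal 75th percentiles it was 0.92, with 6 markers above and 1 below. Against the macrophage library all 7 lay below as deposited. Epithelial markers, 8 in number, summed to 599, 355 and 1185. None of the markers in these 6 lists was listed at 0, but not all lay above the receptor gene level. In Gr-1+ CD11b+ cells 9 of 11 macrophage, 3 of 10 dendritic cell and 10 of 10 neutrophil markers did. So did 4 of 9 B and plasma cell, 5 of 7 monocyte and 7 of 8 epithelial markers there. In macrophages 7 of 10 dendritic cell, 8 of 9 B and plasma cell and 7 of 8 epithelial markers did, with the other 3 lists complete. In DC all did. Whether these came from other cells or from the sorted cells themselves was not tested. Nor was the part of other populations in the values below. In bulk libraries, fewer cells of a type and less RNA per cell cannot be told apart.

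Lysosome genes were mostly highest in CD64+ macrophages. As deposited, 30 of the 36 had their highest value there, 2 in DC and 4 in the Gr-1+ CD11b+ cells, whereas macrophages were highest for 30.1% of all genes that reached 10 FPKM in any library. The median of the 36 genes was 149 FPKM in macrophages, 70.3 in DC and 55.95 in the Gr-1+ CD11b+ cells. Their summed FPKM took up 1.34%, 0.664% and 0.527% of the library in the same order. The 4 genes highest in Gr-1+ CD11b+ cells were Atp6v1g1, Atp6v0a1, Lamp2 and Neu1, and the 2 highest in DC were Glb1 and Tfeb. Under 4 other scalings of the libraries, 24 to 29 members were highest in macrophages. By rank among the 17329 genes, which needs no scaling, 25 members ranked highest in macrophages, 8 in Gr-1+ CD11b+ cells and 3 in DC, where 24.9%, 30.7% and 44.4% of the genes at 10 FPKM or more did.

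**Figure D1:**
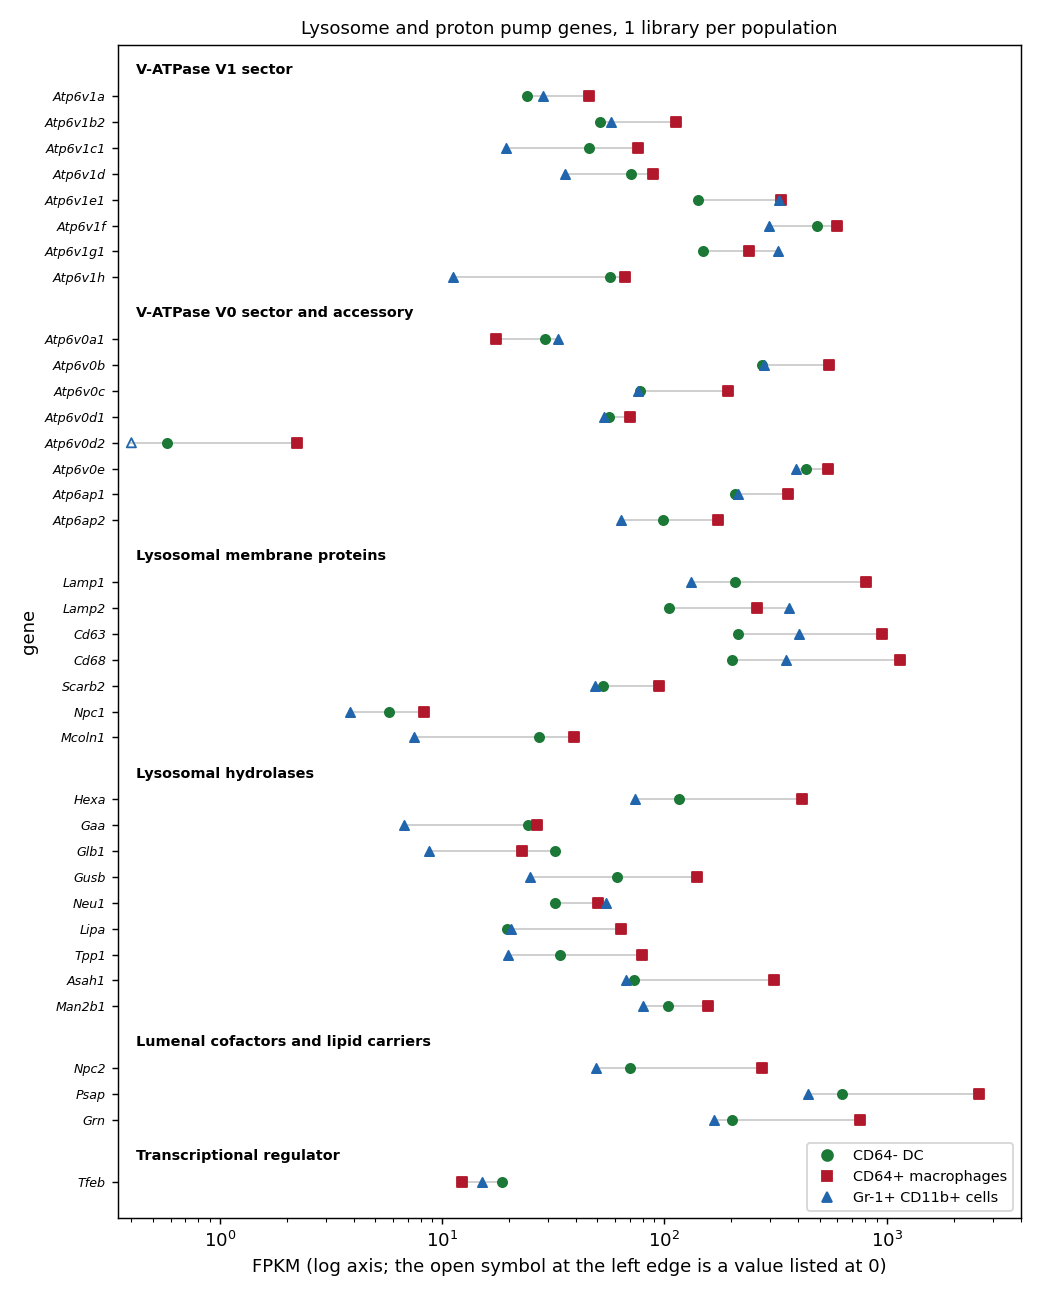
FPKM of each of the 36 genes (log axis) in the 3 libraries, grouped by role; 1 symbol is 1 library, so there are no error bars. The macrophage symbol lies farthest right for 30 genes, while Atp6v1g1, Atp6v0a1, Lamp2 and Neu1 lie farthest right in Gr-1+ CD11b+ cells.

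CD64- DC were compared with CD64+ macrophages to describe how these antigen-presenting populations differ. No lysosome gene was higher in DC by the size rule, and 4 of 36 were higher in macrophages: Cd68, Cd63, Asah1 and Psap. Among all 17329 genes the same rule called 2.31% higher in macrophages and 1.53% higher in DC. Among the 6614 genes with 10 FPKM or more in either of these libraries, it called 6.06% and 4.02%. The median difference of the 36 genes was -0.86 (DC minus macrophage), against -0.05 over all genes and 0.13 over genes at 10 FPKM or more, and 33 of 36 differences were below 0. At a lower limit of 1 on the log2 scale, 16 of 36 were higher in macrophages and 0 in DC, against 14.9% and 14.7% of the 6614 genes and 5.69% and 5.59% of all genes. With every library scaled to the same sum, 1 gene, Cd68, still passed the size rule and 27 differences were below 0. The rule then called 1.52% of all genes higher in macrophages.

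Gr-1+ CD11b+ cells were compared with CD64+ macrophages in the same way. The size rule called 0 genes towards Gr-1+ CD11b+ cells and 9 of 36 towards macrophages: Lamp1, Mcoln1, Hexa, Gusb, Asah1, Npc2, Psap, Grn and Atp6v1h. The rule called 3.41% of all genes higher in macrophages, or 9.72% of the 6083 genes at 10 FPKM or more in either library, and 1.41% and 4.01% higher in Gr-1+ CD11b+ cells. The median difference was -1.30 (Gr-1+ CD11b+ minus macrophage), against 0.10 over all genes and -0.75 over genes at 10 FPKM or more. At a limit of 1, 20 of 36 were higher in macrophages (background 15.1% of all genes and 42.9% of the 6083) and 0 in the other library (4.72% and 13.4%). The calls rested on the scaling: with the libraries matched on the median ratio of genes at 10 FPKM or more, 0 of 36 passed and the median was -0.49. Of all genes, 1.01% then passed towards macrophages. In every scaling tried 26 genes lay below 0 and 5 above it. Those 5 were Atp6v1g1, Atp6v0a1, Lamp2, Neu1 and Tfeb.

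Between Gr-1+ CD11b+ cells and DC the lysosome genes were mixed. Atp6v1h alone passed the size rule towards DC, and 0 genes passed the other way. Of all genes, 6.28% were called towards DC and 3.65% towards Gr-1+ CD11b+ cells, or 16.1% and 9.39% of the 6740 genes at 10 FPKM or more in either library. At a limit of 1, 6 genes were higher in DC (background 18.6% and 47.9%) and 3 in Gr-1+ CD11b+ cells (6.03% and 15.5%). The median difference was -0.28 (Gr-1+ CD11b+ minus DC), against 0.01 over all genes and -0.89 over genes at 10 FPKM or more. With equal 75th percentiles it was 0.61, and 3 genes (Atp6v1e1, Atp6v1g1 and Lamp2) passed towards Gr-1+ CD11b+ cells while Atp6v1h no longer passed. In that scaling the rule called 7.18% of all genes towards Gr-1+ CD11b+ cells and 1.63% towards DC. The sign turned with the scaling for 22 of 36 genes. Those above 0 in all scalings were Atp6v1e1, Atp6v1g1, Lamp2, Cd63, Cd68 and Neu1, and those below 0 were Atp6v1c1, Atp6v1d, Atp6v1h, Atp6v0d2, Mcoln1, Gaa, Glb1 and Gusb. All 3 comparisons share libraries with each other, so their values are not independent.

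**Figure D2:**
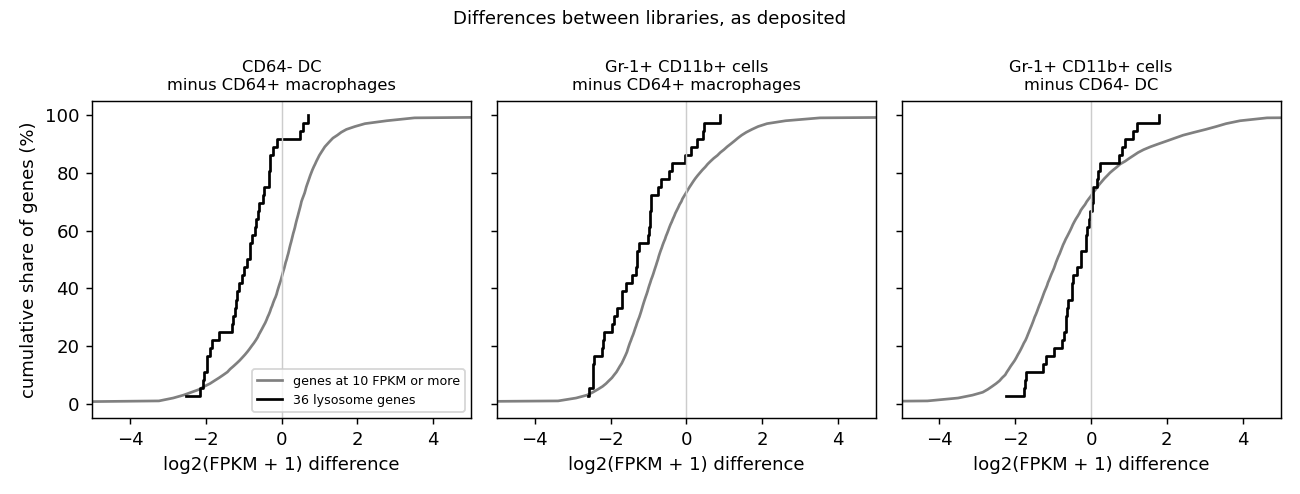
Cumulative share (%) of genes against the log2(FPKM + 1) difference between libraries as deposited, for the 36 lysosome genes (black) and for all genes at 10 FPKM or more in any library (grey). The black curve lies left of the grey one in most of both comparisons with macrophages (medians of -0.86 against 0.13 and -1.30 against -0.75) and right of it over most of the range for Gr-1+ CD11b+ cells minus DC (-0.28 against -0.89).

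**Figure D3:**
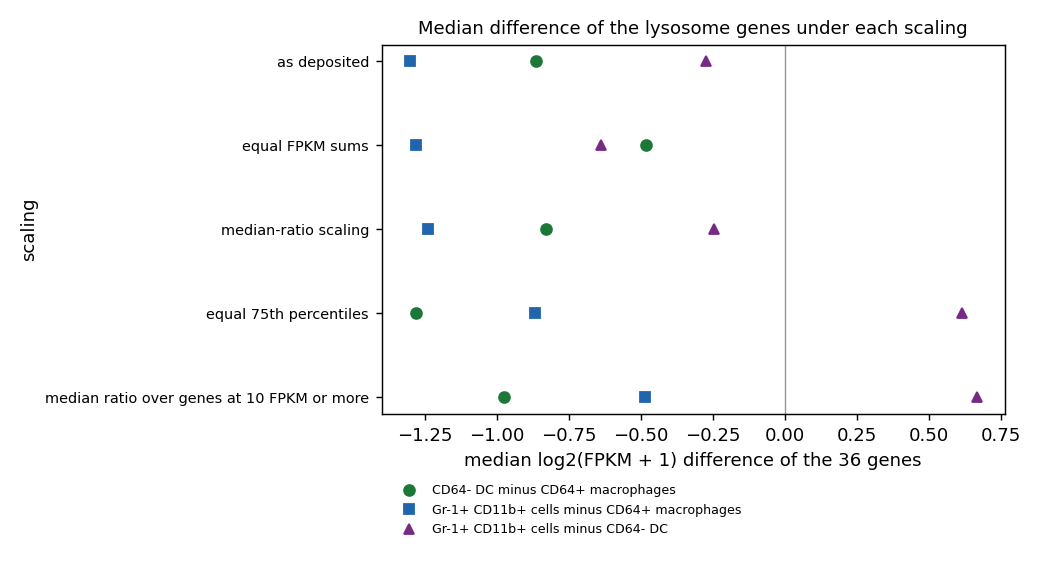
Median log2(FPKM + 1) difference of the 36 genes in each comparison, as deposited and under 4 scalings of the libraries; 1 symbol is 1 median. Both medians against macrophages stay below 0 in each row, while that of Gr-1+ CD11b+ cells minus DC runs from -0.64 to 0.66.

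Among the V1 genes, which encode the ATP-hydrolysing head and the stalks that hold it, 7 of 8 were highest in macrophages, and none passed the size rule between DC and macrophages. Atp6v1a, the catalytic A subunit, was at 24.1 FPKM in DC, against 45.9 in macrophages and 28.4 in the Gr-1+ CD11b+ cells. Its partner in the head, Atp6v1b2, was at 51.1, 113 and 57.4 in the same order. As deposited, the macrophage library stood above 2 similar values for both genes. With the median ratio of genes at 10 FPKM or more, the Gr-1+ CD11b+ value of Atp6v1a exceeded that of macrophages by 0.15 on the log2 scale, and those of Atp6v1a and Atp6v1b2 exceeded DC by 1.16 and 1.12. Of the rotor subunits, Atp6v1d was at 70.6, 89.1 and 35.6 FPKM, and Atp6v1f was the most abundant V1 transcript of DC and macrophages at 484, 600.1 and 297. For both genes the Gr-1+ CD11b+ library was the low one.

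Subunits of the peripheral stalk and regulatory subunits took different positions in Gr-1+ CD11b+ cells. Atp6v1e1 and Atp6v1g1, subunits E and G, pair to form the peripheral stalks. Atp6v1e1 was at 142 FPKM in DC, with macrophages at 336 and Gr-1+ CD11b+ cells at 328. Its sign between Gr-1+ CD11b+ cells and macrophages turned with the scaling. Atp6v1g1 was at 149, 239 and 324. In contrast Atp6v1c1, subunit C, which joins the stalks to V0 and is released when the pump disassembles, was at 45.8, 75.8 and 19.5 FPKM. Atp6v1h, subunit H, which couples V1 to V0 and inhibits free V1, was at 56.6, 66.7 and 11.2. Gr-1+ CD11b+ cells were thus high for E and G and low for C and H within 1 library.

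Atp6v1h is encoded on the plus strand of chromosome 1, from 5070018 to 5162529 (GRCm38). Its difference was -2.47 from macrophages and -2.24 from DC. The value of 11.2 FPKM rested on about 42 fragments, which gave a 95% Poisson interval of 8.12 to 15.2 FPKM for counting error, above 1.58, the FPKM of the opposite-strand gene Rgs20 whose exons overlap it. That interval also reached below the receptor gene level of 9.67 FPKM.

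Ratios between genes of 1 library do not depend on how libraries are scaled. The ratio of Atp6v1e1 to Atp6v1h was 2.50 in DC, 5.04 in macrophages and 29.3 in the Gr-1+ CD11b+ cells, and that of Atp6v1g1 to Atp6v1h was 2.63, 3.59 and 28.95. These pairs were chosen after the values were seen. Of the V1 sum, Atp6v1e1 and Atp6v1g1 held 29.8% and 29.4% in Gr-1+ CD11b+ cells, compared with 13.9% and 14.6% in DC and 21.5% and 15.3% in macrophages. Atp6v1h held 1.02% in Gr-1+ CD11b+ cells against 5.53% and 4.26%. The V1 sums themselves were 1023 FPKM in DC, against 1566 in macrophages and 1101 in the Gr-1+ CD11b+ cells. The spread among the 8 subunits was an SD of 1.34, 1.29 and 1.97 log2 units in the same order.

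**Figure D4:**
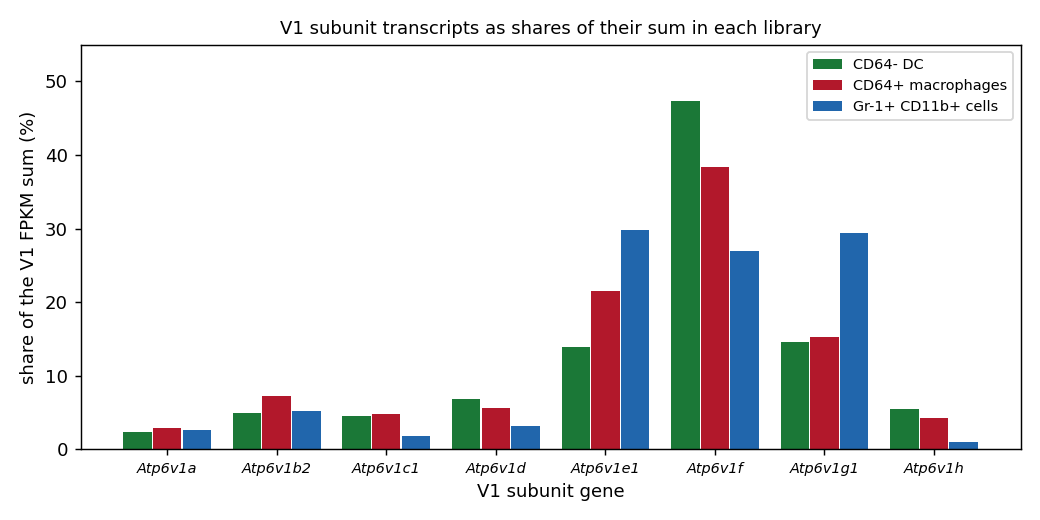
Share (%) of each V1 subunit gene in the summed FPKM of the 8 V1 genes, by library; bars start at 0 and each is 1 library. Atp6v1e1 and Atp6v1g1 stand at 29.8% and 29.4% in Gr-1+ CD11b+ cells, where Atp6v1h stands at 1.02%.

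In the V0 sector, 4 of 6 subunit genes varied little between DC and Gr-1+ CD11b+ cells as deposited and were higher in macrophages. Atp6v0c, the main proteolipid of the proton-carrying ring, was at 78.0 FPKM in DC, with macrophages at 193 and Gr-1+ CD11b+ cells at 76.0, and its value is uncertain because 2 annotated pseudogene copies exist. Atp6v0b, the other ring subunit, was at 275, 552 and 279.8. For both ring genes the macrophage library stood apart and the other two lay together. Atp6v0d1, which links the ring to the rotor, was at 56.2, 70.3 and 53.7 FPKM, and the small subunit gene Atp6v0e was at 433, 542 and 392. Those 2 genes spanned the narrowest ranges of the sector, and for both the sign against macrophages turned with the scaling.

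Subunit a, which forms the proton path and directs the pump to its membrane, has several isoforms, and they ranked differently by library. Atp6v0a1, one of the 2 members lowest in macrophages (the other is Tfeb), was at 29.1 FPKM in DC, against 17.4 in macrophages and 33.3 in the Gr-1+ CD11b+ cells. It was lowest in macrophages in each of the scalings tried. Tcirg1, the a3 isoform known from lysosomes and osteoclasts, was the reverse at 41.8, 137 and 22.3 FPKM. Its difference of -2.57 between Gr-1+ CD11b+ cells and macrophages passed the size rule, except after matching the median ratio of genes at 10 FPKM or more. The ratio of Tcirg1 to Atp6v0a1 was 1.43 in DC, 7.85 in macrophages and 0.670 in the Gr-1+ CD11b+ cells. Atp6v0a2 was at 20.3, 12.9 and 6.22 FPKM, the last under the receptor gene level. Thus the a3 transcript was the highest of the a isoforms in macrophages and DC, and a1 in Gr-1+ CD11b+ cells. Atp6v0a4, known from kidney, lay below the receptor gene level in all libraries.

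Other isoforms were scarce. Atp6v0d2, the d isoform known from osteoclasts and some macrophages, had 0.577 FPKM in DC and 2.23 in macrophages, both below the receptor gene level, and was listed at 0 in Gr-1+ CD11b+ cells. Atp6v1b1 was listed at 0 in every library. Atp6v0e2, Atp6v1e2 and Atp6v1g3 lay below the receptor gene level everywhere, and Atp6v1c2 and Atp6v1g2 exceeded it only in DC, at 1.14 and 2.15 FPKM. Thus Atp6v1b2, Atp6v1c1, Atp6v1e1, Atp6v1g1, Atp6v0d1 and Atp6v0e were the major transcripts of subunits B, C, E, G, d and e in all 3 libraries.

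The accessory proteins of the pump were also highest in macrophages. Atp6ap1, which takes part in pump assembly, was at 209 FPKM in DC, with macrophages at 358 and Gr-1+ CD11b+ cells at 215. Atp6ap2, the (pro)renin receptor gene, was at 98.1, 175 and 63.9. In neither gene did a difference pass the size rule, and the sign of Atp6ap1 between Gr-1+ CD11b+ cells and macrophages turned with the scaling.

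Of the 7 lysosomal membrane genes, 6 were highest in macrophages. Cd68, a mucin-like glycoprotein of phagocyte lysosomes widely used as a macrophage marker, was at 201 FPKM in DC, against 1151 in macrophages and 354 in the Gr-1+ CD11b+ cells. Its difference of -2.51 between DC and macrophages was the largest of the 36 in that comparison as deposited. Cd63, a tetraspanin of late endosomes, lysosomes and secretory granules, was at 215, 953 and 403 FPKM, with a difference of -2.14; an annotated pseudogene copy makes its value uncertain. For both, DC were lowest and Gr-1+ CD11b+ cells lay between.

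Lamp1 and Lamp2, the major glycoproteins of the lysosomal membrane, did not follow each other. Lamp1 (chromosome 8, positions 13159161 to 13175338, plus strand) was at 207 FPKM in DC, with macrophages at 807 and Gr-1+ CD11b+ cells at 132. Lamp2 (chromosome X, positions 38401357 to 38456454, minus strand) was at 105, 262 and 363. Lamp1 was highest in macrophages and Lamp2 in Gr-1+ CD11b+ cells. From macrophages to Gr-1+ CD11b+ cells the difference was -2.60 for Lamp1 and 0.47 for Lamp2. The ratio of Lamp1 to Lamp2 was 1.98 in DC and 3.08 in macrophages but 0.363 in Gr-1+ CD11b+ cells, so their order was inverted there. In Gr-1+ CD11b+ cells these values rested on about 659 and 1442 fragments, with 95% Poisson intervals of 122 to 142 and 345 to 383 FPKM. Grtp1, whose exons overlap those of Lamp1 on the opposite strand, was at 2.41, 2.79 and 5.40 FPKM (DC, macrophages, Gr-1+ CD11b+ cells).

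Scarb2, the receptor that carries glucocerebrosidase to lysosomes, was at 52.9 FPKM in DC, against 94.4 in macrophages and 48.6 in the Gr-1+ CD11b+ cells. Npc1, the membrane protein that exports cholesterol, was the lowest of the membrane genes at 5.78, 8.28 and 3.87 FPKM, and its partner Npc2 is given below. An overlapping gene on the opposite strand, Rmc1, limits the Npc1 value, since no source used here states that strand was kept. Mcoln1, the calcium-permeable channel TRPML1, was at 27.3, 39.1 and 7.49 FPKM. Its difference of -2.24 between Gr-1+ CD11b+ cells and macrophages passed the size rule, but the lower value rested on about 35 fragments and lay under the receptor gene level.

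The hydrolases had a lower typical level than the membrane proteins, with a median of 79.2 FPKM in macrophages, 34.0 in DC and 24.96 in the Gr-1+ CD11b+ cells. Of the 9, 7 were highest in macrophages and 7 were lowest in Gr-1+ CD11b+ cells. With equal 75th percentiles or with the median ratio of genes at 10 FPKM or more, 6 of the 9 were above their DC value in Gr-1+ CD11b+ cells, against 2 as deposited. Asah1, Hexa and Lipa, which act on lipids or glycolipids, were each highest in macrophages. Asah1, acid ceramidase, was at 73.0 FPKM in DC, with macrophages at 311 and Gr-1+ CD11b+ cells at 66.9. Hexa, the alpha subunit of beta-hexosaminidase, was at 117, 415 and 74.0. Lipa, which hydrolyses cholesteryl esters and triglycerides, was at 19.5, 63.7 and 20.3. In all 3 genes macrophages stood well above 2 lower libraries.

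Asah1 was called towards macrophages against both other libraries, at -2.08 from DC and -2.20 from Gr-1+ CD11b+ cells. Hexa passed the rule against Gr-1+ CD11b+ cells at -2.47 but not against DC at -1.82, and its opposite-strand neighbour Tmem202 was at 0.317, 0.280 and 3.40 FPKM, highest in the Gr-1+ CD11b+ library. Lipa did not pass, at -1.66 and -1.60. Gusb, beta-glucuronidase, was at 61.3 FPKM in DC, against 140.4 in macrophages and 24.96 in the Gr-1+ CD11b+ cells, and passed at -2.45 between the last pair. The libraries were thus ordered macrophages, DC and Gr-1+ CD11b+ cells for this enzyme. Tpp1, a tripeptidyl peptidase, was at 34.0, 79.2 and 19.7 FPKM, close to the limit at -1.95. Man2b1, a lysosomal alpha-mannosidase, was at 103, 157 and 79.8.

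For the other 3 hydrolases macrophages did not stand apart. Gaa, the acid alpha-glucosidase that degrades glycogen, had 24.3 FPKM in DC and 26.6 in macrophages, and at 6.74 in the Gr-1+ CD11b+ cells. Glb1, beta-galactosidase, was highest in DC at 32.3 FPKM, with 23.0 in macrophages and 8.73 in the Gr-1+ CD11b+ cells. Both Gr-1+ CD11b+ values lay under the receptor gene level. Neu1, a sialidase that is held in a complex with beta-galactosidase, was at 32.0, 50.2 and 54.5 FPKM, low in DC. The ratio of Neu1 to Glb1, again chosen after seeing the values, was 0.993 in DC and 2.19 in macrophages, and is not given for Gr-1+ CD11b+ cells because of the Glb1 level there.

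The 3 lumenal proteins without hydrolase activity were all highest in macrophages and, as deposited, ordered the libraries alike. With equal 75th percentiles or with the median ratio of genes at 10 FPKM or more, all 3 were higher in Gr-1+ CD11b+ cells than in DC. Psap, the precursor of the saposins that help degrade sphingolipids, was the most abundant of the 36 genes in each library, at 632 FPKM in DC, with macrophages at 2613 and Gr-1+ CD11b+ cells at 443. Grn, the progranulin precursor, was at 202, 757 and 166 FPKM. Npc2, which hands cholesterol to NPC1, was at 70.0, 276 and 49.0. For all 3, macrophages were above both other libraries, whose values lay close to each other. The differences from macrophages were -2.05, -1.90 and -1.96 in DC and -2.56, -2.18 and -2.47 in Gr-1+ CD11b+ cells. The ratio of Grn to Psap was 0.319, 0.290 and 0.376, so the relative level of these 2 transcripts varied little.

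Transcripts of macrophage marker genes were present in both other libraries. In DC the 11 macrophage markers were at 7.72% (Cd14) to 17.0% (Mertk) of their macrophage level. All 35 members other than Atp6v0d2 were above these shares, the lowest being Cd68 at 17.5%. In Gr-1+ CD11b+ cells the shares of the markers were wider. They ran from 7.64% (C1qc) through 16.5% (Adgre1), 21.5% (Csf1r) and 27.9% (Mertk, under the receptor gene level there) to 184% (Cd14). Of the same 35 members, Lamp1 at 16.3% was below Adgre1, 7 were below Csf1r and 12 below Mertk, so members and macrophage markers overlapped in that library. Whether any part of each value came from macrophages, and how much, was not tested.

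Tfeb was low and, as deposited, varied little. It was at 18.5 FPKM in DC, against 12.3 in macrophages and 15.1 in the Gr-1+ CD11b+ cells. The differences from macrophages were 0.55 and 0.28 and stayed above 0 in each scaling. They ran from 0.12 to 0.92 in DC and reached 1.07 in Gr-1+ CD11b+ cells. Between Gr-1+ CD11b+ cells and DC the sign turned with the scaling. The factor gene was thus lowest where most lysosome genes were highest. The related factor gene Tfe3 was at 18.7, 28.2 and 25.1 FPKM, and Mitf was at 1.34, 3.83 and 1.01. Tfec, the MiT member known from macrophages, was at 0.563 FPKM in DC, with macrophages at 10.8 and Gr-1+ CD11b+ cells at 4.03, and its difference of -2.92 between DC and macrophages passed the size rule. It was -2.70 with equal sums and -2.83 with the median ratio of genes at 10 FPKM or more, where the macrophage value fell under 10 FPKM and the call was lost, and -0.98 with a pseudocount of 10. The Tfec values of DC and Gr-1+ CD11b+ cells lay under the receptor gene level, as did the Mitf value of Gr-1+ CD11b+ cells.

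Because these factors bind CACGTG, the RefSeq promoter windows (250 bases before to 50 after each start, GRCm38.p6) were searched for those letters. They read the same on both strands, as does the longer form TCACGTGA, which holds them. Windows were found for 29 of 36 members. The 7 others were Asah1, Atp6v0d2, Atp6v1b2, Atp6v1c1, Atp6v1g1, Atp6v1h and Npc1. CACGTG was present for 8 of 29 members (27.6%), against 8.09% of all 27025 symbols with a window and 12.3% of those at 10 FPKM or more. TCACGTGA was present for 4 (13.8%), against 1.12% and 2.37%. A match is a description of these letters and not a bound site. The stretches of the 8 members are shown because they hold the match, 5′ to 3′ along the gene's strand, with CACGTG, or TCACGTGA where present, in capitals:
Lamp1: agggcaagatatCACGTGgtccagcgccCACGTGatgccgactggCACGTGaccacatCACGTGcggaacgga
Mcoln1: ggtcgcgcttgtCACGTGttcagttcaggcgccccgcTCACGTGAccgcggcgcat
Atp6v0b: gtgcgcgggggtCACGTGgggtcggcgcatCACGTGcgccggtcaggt
Atp6v0d1: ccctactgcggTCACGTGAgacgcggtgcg
Atp6v0e: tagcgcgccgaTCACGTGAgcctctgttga
Atp6v1a: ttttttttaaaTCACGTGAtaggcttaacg
Gaa: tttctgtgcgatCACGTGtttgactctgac
Glb1: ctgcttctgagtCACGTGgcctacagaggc

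The Lamp1 stretch, chr8:13159088-13159160 on the plus strand, held 4 copies within 73 bases before the start. Mcoln1 (chr8:3500436-3500491, plus strand) and Atp6v0b (chr4:117887330-117887377, minus strand) held 2 each. The stretches around single matches were 30 bases long. On the minus strand these were chr8:105566050-105566079 for Atp6v0d1 and chr16:44139373-44139402 for Atp6v1a. On the plus strand they were chr17:26676387-26676416 for Atp6v0e, chr11:119267811-119267840 for Gaa and chr9:114401018-114401047 for Glb1. For members with the letters, the median difference between DC and macrophages was -0.41 over 8 genes, ranging from -1.96 for Lamp1 to 0.47 for Glb1, and that of the 21 members without them was -1.20, from -2.51 to 0.71. Between Gr-1+ CD11b+ cells and macrophages the medians were -1.14 and -1.30. Whether the letters go with the differences was not tested.

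Beyond the members, 99 other lysosome genes were listed and 97 were in the tables, 6 of them below 1 FPKM in every library. Between DC and macrophages 4 of 97 (4.12%) passed the size rule towards macrophages and 1 (1.03%) towards DC, against 6.06% and 4.02% of genes at 10 FPKM or more. Between macrophages and Gr-1+ CD11b+ cells 11 (11.3%) passed towards macrophages, against 9.72%, and 0 the other way. Between DC and Gr-1+ CD11b+ cells 3 (3.09%) passed towards DC, against 16.1%, and 0 the other way. The 97 include genes under 10 FPKM, which cannot pass the rule, so their shares are not like for like with that background. Of all 17329 genes, the rule called 2.31% towards macrophages and 1.53% towards DC in the first comparison. In the second it called 3.41% towards macrophages, and in the third 6.28% towards DC. The medians of the 97 genes were -0.38 (DC minus macrophage), -1.13 (Gr-1+ CD11b+ minus macrophage) and -0.81 (Gr-1+ CD11b+ minus DC). With the median ratio of genes at 10 FPKM or more matched, 2 were higher in macrophages than in Gr-1+ CD11b+ cells and the last median was 0.02. Of all genes, 1.01% were then called higher in macrophages than in Gr-1+ CD11b+ cells. The housekeeping list of 14 genes had medians of 0.24, -0.70 and -0.89. With equal 75th percentiles they were -0.22, -0.26 and 0.03. Of that list, Ppia, Rplp0 and Eef1a1 were higher in DC than in the Gr-1+ CD11b+ cells by the rule, at 2638, 1195 and 2430 against 568, 287 and 587 FPKM, while B2m, at 3804 and 2135, was not called.

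Of 30 other hydrolases and cofactors, 3 were higher in macrophages than in DC and 8 than in Gr-1+ CD11b+ cells. Lgmn, legumain, an asparaginyl endopeptidase, was at 132 FPKM in DC, against 685 in macrophages and 68.6 in the Gr-1+ CD11b+ cells and was called against both. With equal FPKM sums the Lgmn call against DC was lost (-1.98). Acp2, lysosomal acid phosphatase, was at 7.89, 46.2 and 16.3 FPKM, and Pla2g15, lysosomal phospholipase A2, at 8.97, 76.2 and 23.9, both called against DC. The Acp2 call was lost with a pseudocount of 10 (-1.65). The tartrate-resistant phosphatase gene Acp5 was at 112, 408 and 57.1 FPKM. It was called against Gr-1+ CD11b+ cells, as were Dnase2a, Naglu, Plbd2 and Rnaset2b, whose macrophage values ran from 29.0 FPKM for Rnaset2b to 52.0 for Dnase2a. With the median ratio of genes at 10 FPKM or more, Lgmn was still called against Gr-1+ CD11b+ cells, while Acp5, Dnase2a, Naglu, Plbd2 and Rnaset2b were not. Rnaset2b has a close copy, Rnaset2a, so its value is uncertain. Plbd2 was also higher in DC than in the Gr-1+ CD11b+ cells, at 37.8 against 6.88 FPKM. That call was lost with equal 75th percentiles (-1.45), that median ratio (-1.41) and a pseudocount of 10 (-1.50). The Gr-1+ CD11b+ values of Plbd2, Naglu (5.40 FPKM) and Rnaset2b (4.45 FPKM) lay under the receptor gene level. Gm2a, the activator of ganglioside breakdown, was among the highest of the list at 201, 351 and 142 FPKM and was not called.

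Of 21 other membrane proteins, 0 were called against macrophages and 1 in the comparison of Gr-1+ CD11b+ cells with DC. That gene, Mcoln2, a relative of Mcoln1, was at 12.9 FPKM in DC, with macrophages at 4.23 and Gr-1+ CD11b+ cells at 1.73. The last value lay under the receptor gene level. The call was lost with equal 75th percentiles (-1.63), the median ratio of genes at 10 FPKM or more (-1.61) and a pseudocount of 10 (-0.97). Mcoln2 is also known from B cells, whose markers were high in DC, and their part in its value was not tested. Laptm5 was at 737, 1104 and 564 FPKM and Litaf at 394, 926 and 1578. In the sorting list of 9 genes, M6pr, a mannose 6-phosphate receptor, was at 111, 289.9 and 55.5 FPKM. Nagpa, which uncovers that tag, was at 32.6, 54.1 and 11.8, and both were called between macrophages and Gr-1+ CD11b+ cells. Both calls were lost with equal 75th percentiles (-1.91 for M6pr and -1.68 for Nagpa). They were also lost with the median ratio of genes at 10 FPKM or more (-1.53 and -1.31), and that of Nagpa with a pseudocount of 10 (-1.56). Vps29 of the retromer was at 92.4, 170.0 and 122 FPKM.

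Among 18 MiT and mTORC1 genes the rule called Tfec alone. The Ragulator genes Lamtor2 and Lamtor5, which anchor mTORC1 to lysosomes, were at 226 and 133 FPKM in DC, 268 and 187 in macrophages, and 102 and 62.5 in Gr-1+ CD11b+ cells. Of 10 genes of fusion and positioning, Plekhm1, an adaptor of late endosomes, was called towards DC over macrophages at 28.5 against 4.89 FPKM. Vps16 was called towards DC over Gr-1+ CD11b+ cells at 43.7 against 9.61 FPKM, the latter just under the receptor gene level. The Plekhm1 call was lost with equal 75th percentiles (1.89) and with a pseudocount of 10 (1.37), and the Vps16 call with equal 75th percentiles (-1.21), the median ratio of genes at 10 FPKM or more (-1.16) and a pseudocount of 10 (-1.45). Rab7, the GTPase of late endosomes, was at 165, 282 and 349.6 FPKM (DC, macrophages, Gr-1+ CD11b+ cells), and Arl8b, which moves lysosomes outward, at 57.7, 66.3 and 19.6.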

How the data were processed

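For every library the authors deposited a table of FPKM values by gene symbol. Per the submitters' processing notes, the tools were Cufflinks 2.2.1, TopHat2 2.0.13, SAMtools 0.1.19 and Bowtie2 2.2.3, and the build was mm10. Their roles are not given in the sources used here. Per the labels' protocols, a SMART-Seq HT kit gave full-length cDNA and a Nextera kit the libraries. The annotation is not given in the sources used here. The members and the lists were chosen with earlier results of these data known.

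Values were used as deposited, with a pseudocount of 1 before log2. Background counts cover genes that reached 1 FPKM in at least 1 library; lists keep all genes found in the tables. All members were named. Of the other lysosome lists, every gene past the size rule and the 2 highest of each list were named. Some genes that this rule picks are not reported here. GENCODE M21 (GRCm38) gave lengths and coordinates and matched 23310 symbols. Depth came from single-transcript genes over 800 nt: 1 fragment per kb was worth 0.123 FPKM (DC), 0.165 (macrophages) and 0.446 (Gr-1+ CD11b+ cells), with 70.0%, 59.7% and 62.7% of low values within 0.2 of a whole multiple (40% by chance). Fragment counts per gene used the shortest annotated coding transcript, and their intervals cover counting error only. Outside Atp6v0d2 the lowest was 21 fragments, and 27 members had over 100 in every library. FPKM fall in all other genes when a few are very abundant: the 10 highest genes held 15.0%, 22.2% and 33.5% of the sums. Alternatives were 2 pseudocounts, 2 floors, 2 limits, 3 scalings and subtraction of the receptor gene median, and 1 scaling was added after seeing the data. Python 3.11.15, NumPy 2.4.6, pandas 2.3.3, SciPy 1.17.1 and matplotlib 3.10.9 were used.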

Additional observations from a re-analysis of the deposited data

How the results depend on the processing

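No called difference of a lysosome gene changed sign under any alternative, but this says little about robustness. Pseudocounts, floors and limits cannot turn a sign, and the scalings shift differences by less than the size rule requires. Genes higher in macrophages than in DC numbered 4 as deposited, 16 with a log2 limit of 1 and 0 with a limit of 3. They numbered 1 with equal FPKM sums, 9 with equal 75th percentiles and 7 with a median ratio over genes at 10 FPKM or more. That median ratio was chosen after seeing the data. In this order the rule called 2.31%, 5.69%, 0.652%, 1.52%, 3.38% and 2.4% of all genes. Those higher in macrophages than in Gr-1+ CD11b+ cells numbered 9 as deposited and 20 with a limit of 1 (3.41% and 15.1% of all genes). With a limit of 3 and with that median ratio they numbered 0 (0.716% and 1.01% of all genes). Between DC and Gr-1+ CD11b+ cells, those higher in DC numbered 1 as deposited (6.28% of all genes). They numbered 0 with a pseudocount of 10 (1.78%), 6 with a limit of 1 (18.6%) and 0 with a limit of 3 (1.38%). With equal sums they numbered 4 (10.5%), and with the receptor gene median subtracted 4 (9.61%). With equal 75th percentiles and with that median ratio they numbered 0 (1.63% and 1.58%). Those higher in the Gr-1+ CD11b+ library numbered 0 as deposited (3.65% of all genes). They numbered 3 with a limit of 1, with equal 75th percentiles and with that median ratio (6.03%, 7.18% and 7.84% of all genes). The scalings moved the median of all genes by -0.28 to 0.25 (DC minus macrophage), 0.01 to 0.63 (Gr-1+ CD11b+ minus macrophage) and -0.28 to 0.76 (Gr-1+ CD11b+ minus DC). Relative to genes at 10 FPKM or more, the members' median was -0.998, -0.55 and 0.62 as deposited. Cd68, between DC and macrophages, was the 1 call kept under all 4 scalings. No paired analysis was possible because each population has 1 library. Values near 10 FPKM in the shallow Gr-1+ CD11b+ library rest on few fragments.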
